A study of Drosophila montana and Drosophila virilis with 24 samples.

Results

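The 7 genes described here work at synapses. The genes shi, Csp, Amph and spin serve vesicles and membrane traffic, and Caki, homer and hiw encode scaffolds and a regulator of the synapse's structure. They were grouped by their known roles, with earlier results of these data known, among the 218 genes named on a custom Agilent array. Expression was measured in whole bodies of mature females of 2 related flies, Drosophila montana (5 groups) and D. virilis (3 groups), with 3 arrays for each group and 24 in all. RNA for an array came from 1 pool of 10 flies aged 20 days. All flies lived in cycles of 22 h light to 2 h dark and were frozen 5 to 6 h into the light phase. Cold-acclimated flies had 6 days at 5°C after 14 days of control conditions, and cold-hardened flies had a single hour at 0°C after 20 days of them. Chill coma, the reversible paralysis of chilled insects, was studied in D. montana alone, with 16 h at -6°C followed by 15 min or 1 h of recovery. Controls of each species spent their 20 days at 19°C. The strains are not given in the sources used here.

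At a synapse, an arriving electrical signal makes vesicles fuse with the nerve terminal's membrane and release transmitter, after which the membrane is taken back in and refilled. Dynamin, the product of shibire (shi), is the GTPase that pinches off the vesicles being retrieved, and D. melanogaster with temperature-sensitive shi alleles are paralysed by warming because their terminals run out of vesicles. Scaffold proteins hold channels and receptors in place at the contact, and ubiquitin ligases restrain how far a terminal grows. Several of these proteins also act outside neurons, among them Amph in muscle.

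A level is given here as the log2 processed signal of a gene, averaged over its probes, minus the 75th percentile of the array. Levels of different genes, or of the 2 species, are not set against each other, because probes differ in brightness and in how well they match each species. A change is the mean level of the treated arrays minus that of the controls of the same species, ± SE with n = 3 arrays per group. P-values of limma were adjusted over all genes of a comparison by the Benjamini-Hochberg method, and a gene is called changed when its adjusted p is under 0.05. All 7 genes passed the brightness filter in both species. The array carried 4 probe pairs each for shi, Amph, homer and hiw, 3 for Caki, 2 for Csp and 1 for spin. The probes of a pair have opposite orientations, and only the brighter of them was used. The hiw probes were dim, with mean signals of 14.9 to 22.7 scanner units, and on the 9 D. virilis arrays they were well above background on 5, 8, 8 and 9 arrays. In whole-body RNA, fewer cells of a type and less RNA per cell cannot be told apart.

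On each array 72.2% to 83.1% of spots were well above background. The 75th percentile of the processed signal was 412.9 to 678.2 units on the 6 recovery arrays, against 658.0 to 882.8 on the other 18. In the scanner software's quality report 1 of the 24 arrays, replicate 2 of acclimated D. virilis, was marked for evaluation because of its detection limit, and the acclimation results of the 7 genes in D. virilis are given with and without it. Each of the 3 slides held all 8 groups. Of the cell type markers listed for the samples, the array measured 9 of 10 for photoreceptors, 3 of 7 for neurons in D. montana and 2 of 7 in D. virilis, 2 of 6 for muscle, 1 of 5 for fat body and 0 of 5 for ovary.

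**Figure D1:**
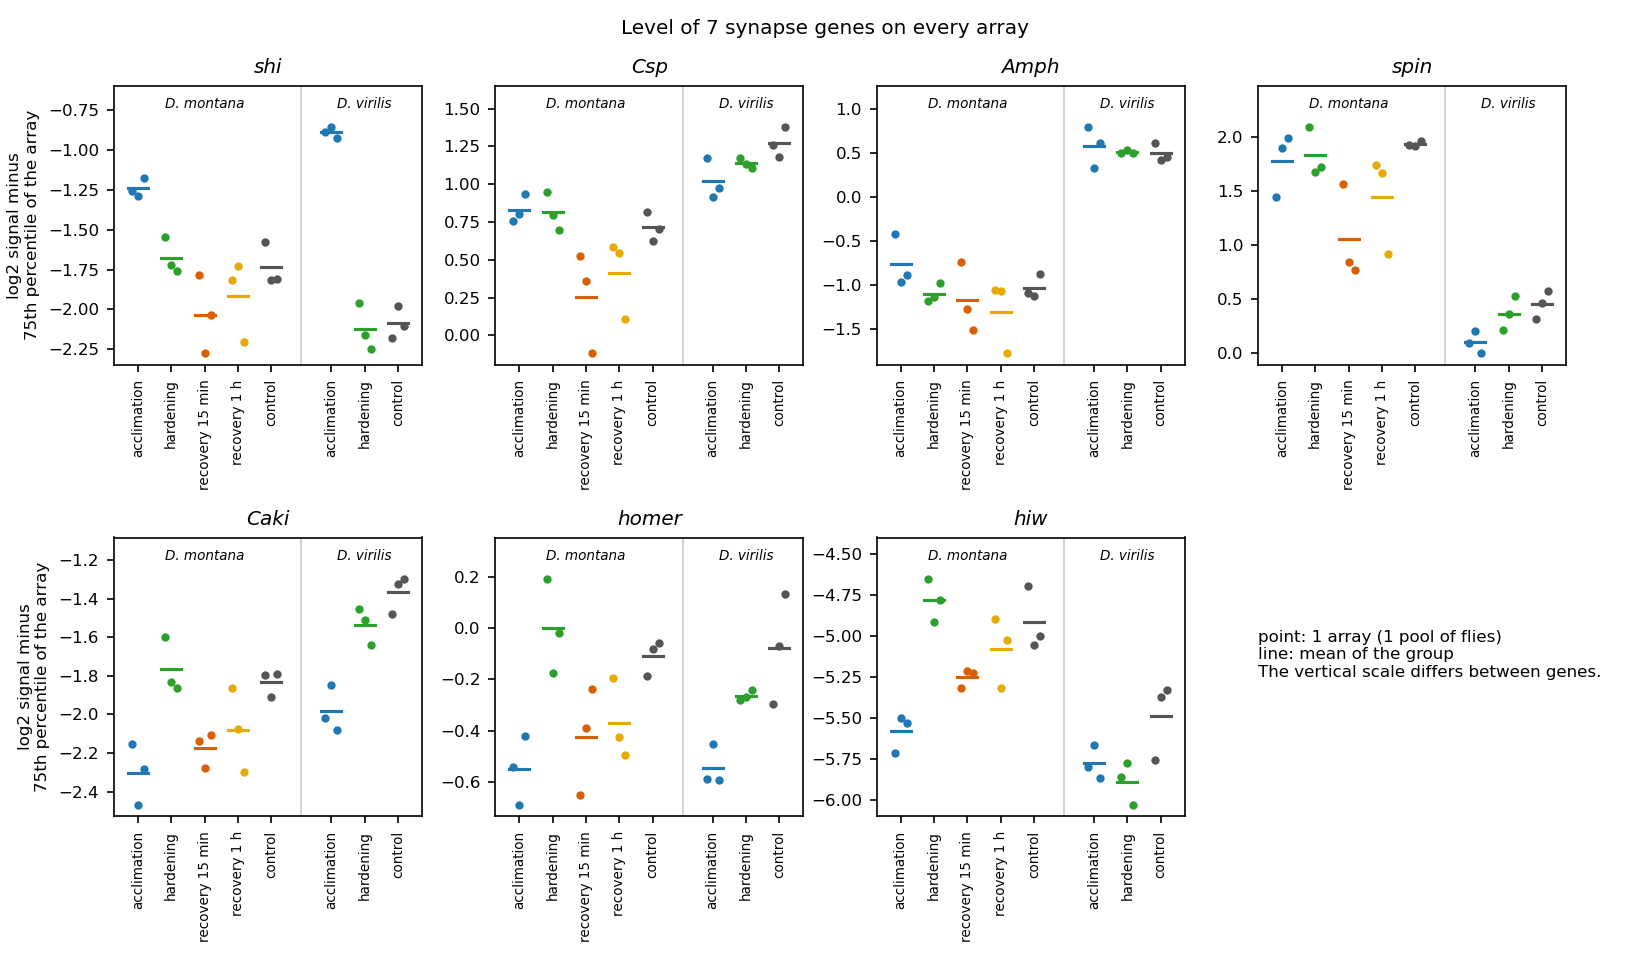
Level of each of the 7 genes on every array, as log2 processed signal minus the array's 75th percentile. Points are arrays, lines are group means and the vertical scale differs between genes. The acclimated arrays lie above the controls for shi in both species and below them for Caki and homer.

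The comparison of acclimated with control D. montana asked how gene expression stood after 6 days of mild cold. In these flies shi rose by 0.49 ± 0.15 on the log2 scale, a ratio of 1.41 to controls. Caki, homer and hiw fell, each to between 0.63 and 0.74 of the control level. Csp, Amph and spin did not pass the test. The 4 called genes, 1 higher and 3 lower, stand beside 26.8% of all 213 genes tested that were called, 9.86% higher and 16.9% lower. The median change of the 7 genes was -0.16, against 0.00056 over all genes.

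Dynamin's gene shi had levels of -1.26, -1.29 and -1.18 in acclimated D. montana, against -1.58, -1.82 and -1.81 in controls. All acclimated arrays were above all controls, as for 19.7% of genes (adjusted p = 0.0250, 95% interval of the change 0.18 to 0.81). The change was positive on each slide, at 0.32, 0.52 and 0.64. Each of the 4 probes was higher too, by 0.43 to 0.58. The call was close to the threshold: adjusted p-values were between 0.0290 and 0.0850 when single arrays were left out, and the gene passed under 4 of 9 other ways of processing.

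Csp encodes the cysteine string protein, a vesicle chaperone with a J domain. Its levels of 0.75, 0.81 and 0.94 in acclimated D. montana overlapped those of 0.82, 0.62 and 0.71 in controls, a change of 0.12 ± 0.16 (adjusted p = 0.689). Amphiphysin (Amph) is a membrane-bending BAR domain protein, known in D. melanogaster for organising the muscle's transverse tubules. It stood at -0.42, -0.97 and -0.88 in acclimated flies and at -1.09, -1.12 and -0.88 in controls, a change of 0.27 ± 0.21 (adjusted p = 0.424). Replicate 1 alone made up most of that difference, which was 0.11 without it. The spinster gene (spin) encodes a transporter-like protein of late endosomes and lysosomes, whose loss in D. melanogaster lets nerve terminals overgrow. Acclimated arrays gave 1.44, 1.89 and 1.99 against 1.93, 1.91 and 1.97 in controls, and the change was -0.16 ± 0.23 (adjusted p = 0.689). Here too replicate 1 stood apart, and without it the change was 0.0051.

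The remaining 3 genes concern the structure of the synapse, and all 3 fell in acclimated D. montana. Caki, the fly CASK gene, encodes a scaffold of the membrane-associated guanylate kinase family. It had levels of -2.15, -2.47 and -2.28 in acclimated flies, against -1.80, -1.91 and -1.79 in controls (change -0.47 ± 0.13, adjusted p = 0.0185). The homer gene encodes a postsynaptic scaffold that links receptors to their partners. Its levels were -0.54, -0.69 and -0.42 in acclimated flies, against -0.19, -0.08 and -0.06 in controls (change -0.44 ± 0.14, adjusted p = 0.0296). Highwire (hiw) is a ubiquitin ligase that restrains the growth of nerve terminals in D. melanogaster. It stood at -5.71, -5.50 and -5.53 in acclimated flies, against -4.69, -5.05 and -4.999 in controls (change -0.67 ± 0.14, adjusted p = 0.0020). The groups did not overlap for any of the 3 genes, where 26.3% of all genes lay wholly below the controls. Every probe used for these genes, the brighter of its pair, was lower, by changes from -0.85 to -0.35.

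The 3 falls differed in how well they held. With 1 array left out at a time, hiw passed in 6 of 6 fits, Caki in 3 and homer in 1. The hiw fall depended on the background correction: with normexp, whose offset of 50 units exceeds the signal of its probes, the change was -0.09 (adjusted p = 0.768). With scaling on the spike-in controls 0 of the 7 genes passed, at adjusted p-values of 0.0892 to 0.382 for the 4 named above.

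A comparison of 2 genes on the same array does not depend on how the arrays are scaled. The level of shi relative to Caki was higher by 0.80, 1.08 and 1.01 on the acclimated D. montana arrays than on the average control, and the control arrays ranged from -0.12 to 0.12. Relative to homer it was higher by 0.91, 1.03 and 0.87, against -0.13 to 0.24 in controls. These pairs were chosen after their values were seen and are given as a description. The neuron markers Syt1, para and cac had overlapping mean levels, -4.56 to -4.01 in acclimated flies and -4.14 to -3.87 in controls. Of these markers cac fell (-0.80 ± 0.17), while Syt1 (-0.25 ± 0.19) and para (0.25 ± 0.22) did not pass. The ranges of the photoreceptor markers (1.097 to 1.243 in acclimated flies and 0.99 to 1.44 in controls) and of the muscle markers (2.11 to 2.45 and 1.94 to 2.23) overlapped as well. The single fat body marker, the fatty acid desaturase gene desat1, did not overlap, at 5.26 to 5.44 in acclimated flies and 6.85 to 7.60 in controls, and fell by 1.86 ± 0.20 (adjusted p = 2.29e-06). The part of these markers in the changes above was not tested.

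In D. virilis the same 6 days at 5°C asked how a close relative responded. Here shi rose by 1.20 ± 0.09, a ratio of 2.30 to controls, while Caki, homer, spin and Csp fell. The changes of Amph and hiw did not pass. The 5 called genes, 1 higher and 4 lower, stand beside 39.3% of 211 genes called, 14.7% higher and 24.6% lower. The median change of the 7 genes was -0.29, against -0.06 over all genes.

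The levels of shi were -0.88, -0.86 and -0.92 in acclimated D. virilis, against -2.18, -1.98 and -2.10 in controls. The groups lay far apart, with a gap of more than a log2 unit between the lowest acclimated array and the highest control; 21.3% of genes lay wholly above the controls. The adjusted p was 5.08e-06 and the 95% interval of the ratio 1.99 to 2.65. Among 211 genes this was the tenth largest change in either direction. Its 4 probes were higher by 1.14 to 1.26 and its slides by 1.30, 1.12 and 1.18. It passed under all 9 other ways of processing, with changes of 0.47 to 1.25, and in all 6 fits without an array. Without acclimation replicate 2, the array marked for evaluation, the change was 1.18 (adjusted p = 4.56e-05).

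Caki had levels of -2.02, -1.85 and -2.08 in acclimated D. virilis, against -1.48, -1.33 and -1.30 in controls, and fell by 0.62 ± 0.09 (adjusted p = 0.000531). The scaffold gene homer stood at -0.59, -0.45 and -0.59 in acclimated flies, against -0.30, -0.07 and 0.13 in controls, and fell by 0.47 ± 0.11 (adjusted p = 0.0052). Both kept their calls in all 6 fits without an array, and Caki also under all 9 other settings. The homer call was lost with spike-in scaling alone (adjusted p = 0.0801). Without acclimation replicate 2 the changes were -0.68 for Caki and -0.51 for homer.

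The vesicle chaperone gene Csp had levels of 1.17, 0.92 and 0.98 in acclimated D. virilis, against 1.26, 1.18 and 1.38 in controls. Its fall of 0.25 ± 0.09 was just past the threshold (adjusted p = 0.0477). The spin levels were 0.09, 0.20 and -0.01 in acclimated flies, against 0.31, 0.46 and 0.57 in controls, a fall of 0.35 ± 0.11 (adjusted p = 0.0235). For both genes all acclimated arrays lay below all controls, as did those of Caki and homer, beside 30.8% of all genes. Neither call was stable: with 1 array left out, Csp passed in 1 of 6 fits and spin in 2. Under the 9 other ways of processing, Csp passed in 8 and spin in 7. Without acclimation replicate 2, Csp had an adjusted p of 0.132 and spin of 0.0237.

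Amph stood at 0.80, 0.34 and 0.62 in acclimated D. virilis and at 0.61, 0.43 and 0.46 in controls, a change of 0.08 ± 0.11 (adjusted p = 0.597). The hiw levels of -5.80, -5.67 and -5.87 in acclimated flies overlapped those of -5.76, -5.37 and -5.33 in controls. Its change of -0.29 ± 0.12 had an adjusted p of 0.0776, and 1 of its 4 probes was not well above background on any of the acclimated arrays. That probe passed the brightness filter through the controls only. Without control replicate 1 hiw passed (change -0.43, adjusted p = 0.0082), and it also did with the median over probes in place of the mean (adjusted p = 0.0490). Without acclimation replicate 2 neither passed, with changes of 0.21 for Amph (adjusted p = 0.110) and -0.35 for hiw (adjusted p = 0.0762).

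Mean levels over the marker lists did not overlap the controls in acclimated D. virilis, though the members of a list were not alike. Neuron markers (Syt1 and cac) had mean levels of -5.13 to -4.98 in acclimated flies and -4.91 to -4.30 in controls. The 9 photoreceptor markers had 0.98 to 1.23 in acclimated flies and 0.55 to 0.85 in controls, and the muscle markers Mhc and sls 1.99 to 2.38 in acclimated flies and 1.59 to 1.88 in controls. Of the neuron markers, cac fell by itself (-0.78 ± 0.15) and Syt1 had a change of 0.03 ± 0.17. The fat body marker desat1 had 5.18 to 5.35 in acclimated flies and 5.99 to 6.27 in controls, and fell by 0.85 ± 0.12 (adjusted p = 0.000312). Their part in the changes above was not tested. The level of shi relative to Caki, which is free of array scaling, was higher by 1.85, 1.71 and 1.88 on the acclimated arrays, against -0.09 to 0.07 on the control arrays.

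**Figure D2:**
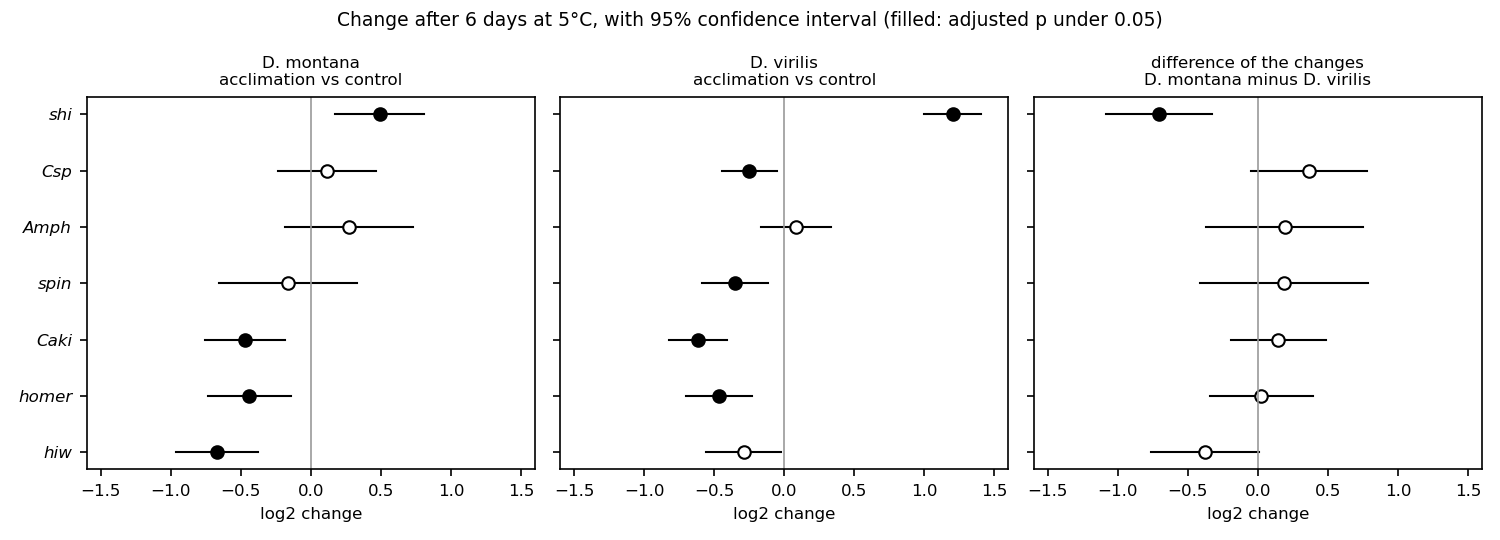
Log2 change of each gene after acclimation in D. montana and D. virilis, and the difference of the changes, with 95% confidence intervals. Filled points have an adjusted p under 0.05. Only shi is filled in all 3 panels; Caki and homer are filled and negative in both species.

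An interaction test over 209 genes asked whether acclimation acted differently in the 2 species. It called 12.4% of them, 4.31% with the higher change in D. montana and 8.13% with the higher change in D. virilis. Of the 7 genes, only shi passed. It rose by 0.49 in D. montana against 1.20 in D. virilis, a difference of -0.71 ± 0.18 (adjusted p = 0.0140, 95% interval -1.09 to -0.33). The difference was negative on each slide, at -0.98, -0.60 and -0.54. It passed in all 12 fits without an array, with adjusted p-values of 0.0181 to 0.0435. It did not pass with both probe orientations averaged (-0.21, adjusted p = 0.363) or with spike-in scaling (-0.65, adjusted p = 0.290). The names of 3 of its 4 probes begin with Dmon, for D. montana, and how well the probes match D. virilis was not tested. Without replicate 2 of acclimated D. virilis the difference was -0.69 (adjusted p = 0.0286).

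For the other 6 genes the interval of the difference included 0. The closest to a call was hiw, at -0.38 ± 0.19 (adjusted p = 0.230), followed by Csp at 0.37 ± 0.20 (adjusted p = 0.274). Caki differed by 0.15 ± 0.16 (95% interval -0.20 to 0.49) and homer by 0.02 ± 0.18 (-0.35 to 0.39). The intervals of hiw (-0.76 to 0.0082), Csp (-0.049 to 0.78), Amph (-0.37 to 0.75) and spin (-0.41 to 0.79) were wide. Each could hold a difference as large as the shi change in D. montana. Without replicate 2 of acclimated D. virilis none of these 6 passed either. The differences were then -0.32 for hiw, 0.31 for Csp, 0.21 for Caki, 0.071 for homer, 0.067 for Amph, against 0.19 with that array, and 0.24 for spin.

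**Figure D3:**
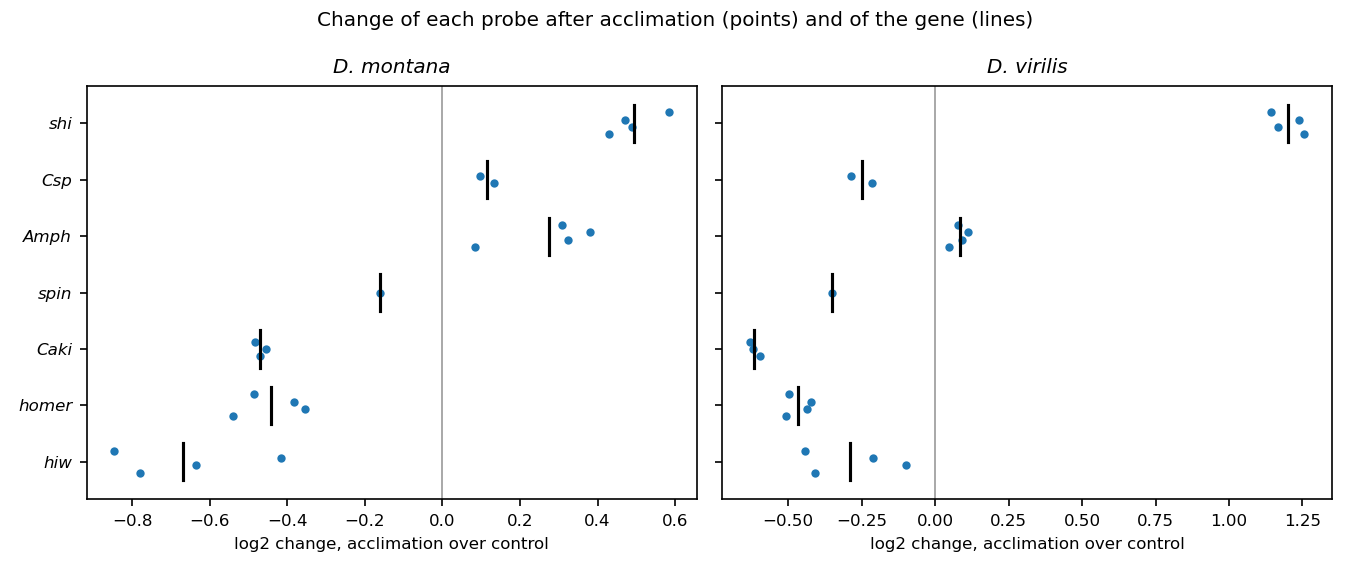
Log2 change of each probe used, the brighter of its pair (points), and of its gene (lines), acclimated over control, in both species. All probes shown for shi are positive and all those for Caki, homer and hiw negative in each species. The horizontal scales of the panels differ.

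Cold hardening asked about a short exposure, 1 h at 0°C. None of the 7 genes passed in D. montana, where limma called 1 of 213 genes (0.469%) and 14 genes had an unadjusted p under 0.05. Changes ran from -0.11 for spin to 0.13 for hiw, and all 7 groups of hardened arrays overlapped the controls. For shi, levels were -1.54, -1.72 and -1.76 in hardened flies, against -1.58, -1.82 and -1.81 in controls, a change of 0.06 ± 0.15. The 95% intervals of the 7 genes lay within -0.60 to 0.45. The signs of these small changes depend on the scaling: with spike-in scaling, which moved the median of all genes by -0.18, the changes of shi, Csp, Caki, homer and hiw were negative.

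In hardened D. virilis limma called 1 of 211 genes (0.474%), 22 had an unadjusted p under 0.05, and again none of the 7 was called. The largest change was in hiw, at -0.40 ± 0.12 (adjusted p = 0.240). Its levels were -5.86, -5.78 and -6.03 in hardened flies, against -5.76, -5.37 and -5.33 in controls, so that every hardened array was below every control. Control replicate 1 was the nearest, and without it the adjusted p of hiw was 0.0180. The hiw probe that passed the brightness filter through the controls only was well above background on 3 control and 2 hardened arrays. Hardened Csp arrays, at 1.18, 1.13 and 1.11, were also below the controls at 1.26, 1.18 and 1.38 (change -0.13 ± 0.09, adjusted p = 0.574). These 2 genes of 7 stand beside 11.4% of all genes lying wholly below the controls. For shi the change was -0.04 ± 0.09, with a 95% interval of -0.24 to 0.17, below the whole interval of its change after acclimation (0.996 to 1.40).

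The hardening responses of the species differed for 1 of 209 genes (0.478%) and for none of the 7. Of the 7, hiw had the largest difference, 0.53 ± 0.19 (adjusted p = 0.160). It passed in 0 of the 9 other ways of processing, with differences of 0.25 to 0.53. Its change was 0.13 in D. montana but -0.40 in D. virilis. At an unadjusted p under 0.05, 32 of the 209 genes differed.

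**Figure D4:**
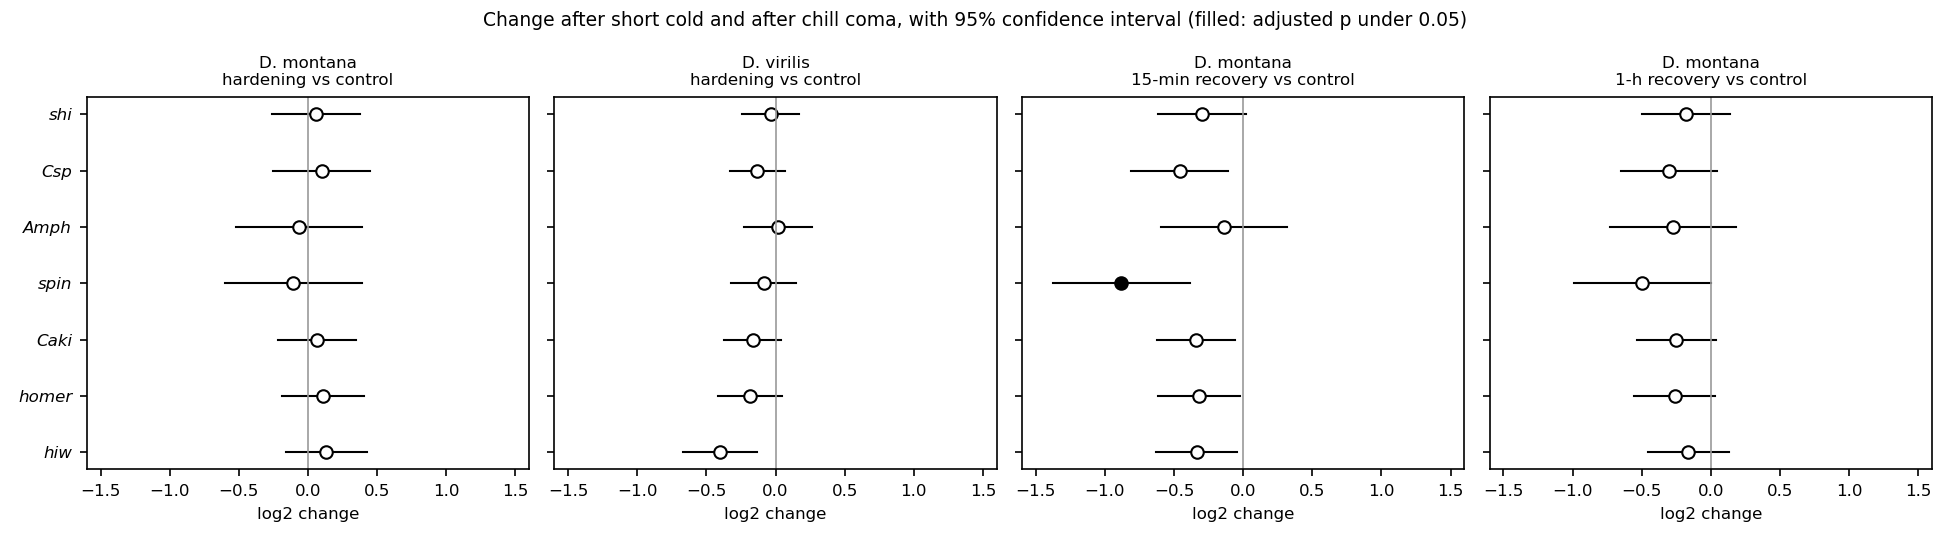
Log2 change of each gene after hardening in both species and after 15 min and 1 h of recovery from chill coma in D. montana, each against control, with 95% confidence intervals. The only filled point, with an adjusted p under 0.05, is spin at 15 min.

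Recovery from chill coma was compared with the same D. montana controls as acclimation and hardening, so these comparisons share 3 arrays. After 15 min, spin had fallen by 0.88 ± 0.23, to 0.54 of the control level (adjusted p = 0.0300). It was the single call among the 7 genes, where 6.57% of 213 genes were called, 4.23% lower. Only 2 of the 213 genes had a larger change in either direction. The other 6 genes had negative changes that did not pass, from -0.46 for Csp to -0.14 for Amph, and the median of the 7 was -0.34, against 0.0038 over all genes.

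The spin levels after 15 min were 1.56, 0.84 and 0.77, against 1.93, 1.91 and 1.97 in controls. Every recovery array was below every control, but replicate 1 lay nearer to the controls than to replicates 2 and 3. The value rests on a single probe. It kept its call under all 9 other ways of processing, with changes from -0.995 to -0.74, yet with 1 array left out it passed in 1 of 6 fits, namely without recovery replicate 1 (-1.13, adjusted p = 0.0090). Without the other arrays its adjusted p was as high as 0.163.

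At 15 min, Csp stood at 0.52, 0.36 and -0.12, against 0.82, 0.62 and 0.71 in controls (change -0.46 ± 0.16, adjusted p = 0.0859). It passed once slide was added as a block (adjusted p = 0.0440) and without recovery replicate 1 (adjusted p = 0.0364). Caki had -2.13, -2.28 and -2.11, against -1.80, -1.91 and -1.79 in controls (change -0.34 ± 0.13, adjusted p = 0.110). The homer levels were -0.65, -0.39 and -0.24, against -0.19, -0.08 and -0.06 in controls (change -0.32 ± 0.14, adjusted p = 0.165). For hiw they were -5.32, -5.21 and -5.22, against -4.69, -5.05 and -4.999 in controls (change -0.34 ± 0.14, adjusted p = 0.128). With spin, these made 5 of 7 genes whose recovery arrays all lay below the controls, beside 19.2% of all genes. Neuron markers had mean levels of -4.37 to -4.28 at 15 min and -4.14 to -3.87 in controls. The markers were not alike: cac fell (-0.72 ± 0.17, adjusted p = 0.0244), while Syt1 (-0.38 ± 0.19) and para (-0.00066 ± 0.22) did not pass. Photoreceptor, muscle and fat body markers overlapped the controls, and the part of all these markers was not tested. The direction for hiw turned with normexp background correction (0.26), and that for Amph with both probe orientations averaged (0.08).

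After 1 h, limma called 6 of 213 genes (2.82%), 33 had an unadjusted p under 0.05, and 0 of the 7 were called. All 7 changes were still negative, from -0.50 for spin to -0.16 for hiw, and their median was -0.26, against -0.05 over all genes. The signs of shi, Amph and hiw turned with both orientations averaged (0.015, 0.06 and 0.05), and that of hiw with normexp (0.34). The spin levels were 1.74, 1.66 and 0.91, a change of -0.50 ± 0.23 (adjusted p = 0.318). Arrays of spin, Csp and homer lay wholly below the controls, 3 of 7 genes beside 9.86% of all genes. Between 1 h and 15 min of recovery none of the 7 passed (1.88% of genes called, and 18 with an unadjusted p under 0.05). The largest of these differences was 0.39 ± 0.23 for spin, and all 7 genes had overlapping groups.

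For spin, Csp, shi and Amph, the 3 recovery arrays with the lowest overall signal, from both times, had the lowest levels. Replicates 2 and 3 at 15 min and replicate 3 at 1 h had the lowest 75th percentiles, at 478.2, 489.2 and 412.9 units. On these arrays spin stood at 0.84, 0.77 and 0.91, while on the other 3 recovery arrays, with 678.2, 576.4 and 519.3 units, it stood at 1.56, 1.74 and 1.66. The same 3 arrays were the lowest of the 6 for Csp (0.36, -0.12 and 0.11, against 0.52 to 0.58), for shi (-2.28, -2.04 and -2.20, against -1.82 to -1.73) and for Amph (-1.27, -1.51 and -1.78, against -1.06 to -0.73). Caki, homer and hiw did not sort the arrays in this way. Within the lower and within the upper 3 arrays, spin did not rise with the signal. This split was described after the values were seen, and the share of all genes that sort the recovery arrays this way was not counted. The part of overall signal in the recovery changes was not tested.

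**Figure D5:**
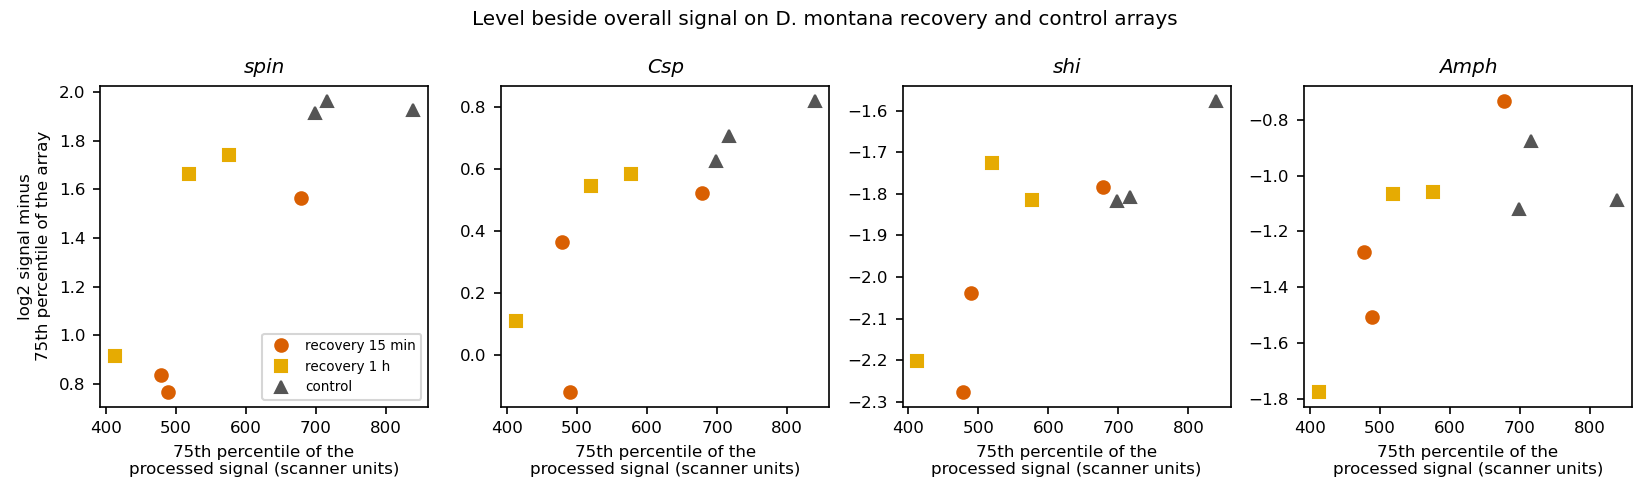
Level of spin, Csp, shi and Amph (log2 processed signal minus the array's 75th percentile) against that 75th percentile, in scanner units, on the recovery and control arrays of D. montana. Points are arrays; the 3 recovery arrays with the lowest 75th percentile, from both times, hold the lowest levels of each gene.

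Across the 5 D. montana groups, the order of the levels differed by gene. For shi, acclimation was highest and did not overlap the next group, hardening, while hardening, control, 1-h recovery and 15-min recovery overlapped from neighbour to neighbour. Acclimation was the lowest group for Caki, homer and hiw, and of these only hiw was separate from its neighbour, 15-min recovery. For Csp and homer, neighbours separated between controls and 1-h recovery. Neighbouring groups all overlapped for Amph and spin. In D. virilis, acclimation was separate from its neighbour for shi at the top and for spin, Caki and homer at the bottom, and for Csp the break lay between controls and hardening. The shares of all genes with such breaks between neighbouring groups were not counted.

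Likeness of pattern was described by Pearson correlation over the 24 arrays, after subtracting each gene's control mean within its species. Points share arrays, slides and the array scaling, and the values say nothing of shared control. Caki and homer were alike (r = 0.89), and homer was nearest to Caki among the 209 genes measured in both species. Their changes were -0.47 and -0.44 in acclimated D. montana and -0.62 and -0.47 in acclimated D. virilis. The gene most like homer was Btk29A, a tyrosine kinase gene (r = 0.92). For hiw it was Rev1, a DNA polymerase gene (r = 0.87), with homer at r = 0.76 and Caki at r = 0.69. The gene most like shi was ken (r = 0.86), followed by CdsA, an enzyme gene of phospholipid synthesis (r = 0.86), and CG6785 (r = 0.82), while shi correlated negatively with Caki (r = -0.50) and homer (r = -0.42). Nearest to Csp was CG14650 (r = 0.91), to spin sgg, the glycogen synthase kinase gene (r = 0.93), and to Amph the chaperone gene Gp93 (r = 0.80). Csp and spin correlated with each other at r = 0.82.

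Other genes of the synapse were few on this array. Of 45 listed genes of the vesicle cycle it measured 5: Syt1, the calcium sensor of release, Rop, a Sec1-family protein of vesicle fusion, cac, the presynaptic calcium channel, the clathrin-uncoating chaperone gene Hsc70-4 and Ace, the acetylcholinesterase gene. Only cac passed in any comparison. It fell in acclimated D. montana (-0.80 ± 0.17, adjusted p = 0.0023), after 15 min of recovery (-0.72 ± 0.17, adjusted p = 0.0244) and in acclimated D. virilis (-0.78 ± 0.15, adjusted p = 0.0018). Thus 1 of 5 passed in each of these, all of them lower, beside 26.8%, 6.57% and 39.3% of all genes, and 0 of 5 in the other 6 comparisons.

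Of 38 listed genes of synapse structure and growth the array measured CaMKII, a calcium-dependent kinase gene, and Fmr1, an RNA-binding regulator of terminal growth. Both fell in acclimated D. virilis, where 39.3% of all genes were called, CaMKII by 0.37 ± 0.09 (adjusted p = 0.0069) and Fmr1 by 0.52 ± 0.09 (adjusted p = 0.0013). In acclimated D. montana they did not pass, with changes of 0.04 ± 0.13 and 0.01 ± 0.16, and their differences between the species did not pass either. Neither passed in any other comparison.

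Of 25 listed channels and receptors of excitable membranes 13 were tested in D. montana and 10 in D. virilis. Both counts include mle, an RNA helicase gene that is neither a channel nor a receptor, and it passed in no comparison. In acclimated D. montana 4 fell and 0 rose: the potassium channel genes slo (-0.60 ± 0.18), Ork1 (-0.54 ± 0.14) and eag (-0.54 ± 0.19), and ort, a histamine receptor gene (-0.57 ± 0.16). After 15 min of recovery Ork1 (-0.58 ± 0.14) and tipE, an auxiliary sodium channel gene (-0.65 ± 0.17), fell. In acclimated D. virilis 3 fell, ort (-0.70 ± 0.11), Ork1 (-0.40 ± 0.12) and tipE (-0.39 ± 0.08), and inaF, a gene that supports the TRP channel of photoreceptors, rose (0.67 ± 0.14). These are 4 of 13, 2 of 13 and 4 of 10 genes called, beside 26.8%, 6.57% and 39.3% of all genes, so that the shares after acclimation were near those over all genes. None of the genes on this list passed after hardening or 1 h of recovery. The medians of the list were -0.10, -0.16 and -0.10 in the 3 comparisons with calls, against 0.00056, 0.0038 and -0.06 over all genes.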

How the data were processed

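The authors deposited spot intensity values of 1-colour (Cy3) arrays from version 10.7.1.1 of Agilent's Feature Extraction, per the file headers. Per the labels' protocols, each pool gave 600 ng of total RNA for labelling. The processed intensity is background-subtracted and not normalized between arrays. A linear table of processed intensity values that the authors deposited was used as an alternative only; the submitters' processing notes name limma, with no role. Its rows, which carry no probe names, followed the probes in name order (r of 0.996 or more on every array).

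Each array held 14800 non-control spots, 8 for each of 1850 probes in 925 pairs of opposite orientation, and 0 were saturated. Spots with outlier flags (87 to 261 per array) were left out, and log2 values were averaged per probe. The 75th percentile was subtracted, and the orientation of each pair that was brighter over all arrays was taken. Gene values are means over those probes that, in 1 or more groups, were well above background on each of the 3 arrays. For D. montana 213 genes remained, for D. virilis 211 and for both 209. Models were fitted with limma 3.58.1 in R 4.3.3 over the 15 D. montana arrays, the 9 D. virilis arrays or all 24, and the procedure was tested on simulated data. Precision is limited by the number of arrays.

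Genes are named as in the probe names; 158 of 218 match RefSeq symbols of D. montana, as do all 7 described here (Caki as CASK). Those of the 7 that were called are named in every comparison, and those not called in some comparisons only. The genes of 3 synapse lists that passed and the nearest by correlation are named too. Members and lists were chosen with earlier results of these data known. Replicates are separate pools of flies. Deviations from the group means correlated above 0.1 in 16 of 39 pairs of same-numbered samples and in 28 of 78 pairs with different numbers. Median r was 0.04 and -0.05, and numbers were not taken as pairs. Alternatives were quantile normalization, spike-in scaling, normexp, no brightness filter, both orientations, median over probes, the authors' table, replicate and slide blocks, and leaving out each array. The files used here hold the median rather than the mean spot signal, so normexp ran on that, with aberrant local backgrounds on 4 arrays set to the array's median. Slide was read from the file headers, where D. montana control replicates 2 and 3 lie on slides 3 and 2.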

Additional observations from a re-analysis of the deposited data

Results flagged for a closer look

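The rise of shi after acclimation differed between the species (0.49 log2 units in D. montana against 1.20 in D. virilis). The difference of -0.71 ± 0.18 (D. montana minus D. virilis, n = 3 arrays per group) passed in the interaction test of limma (adjusted p = 0.0140) and had the same sign on all 3 slides. No group of 4 or more arrays was available in which single arrays could be tested as outliers.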

How the results depend on the processing

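The rise of shi in acclimated D. virilis and the fall of Caki there passed under all 9 other settings and in all 6 fits without an array. The causes of the changes below were not tested, except that fits without an array have fewer samples. Spike-in scaling took the genes called in acclimated D. montana to 27 (51.9% higher against 36.8%), at 15 min to 5 (0% against 35.7%), in acclimated D. virilis to 36 (63.9% against 37.3%), for the difference in acclimation to 4 (50% against 34.6%), in hardened D. virilis to 4 and for the difference in hardening to 2. Of the 7 genes it left 0 in acclimated D. montana, 2 in acclimated D. virilis and 0 in the difference. It shifted the median change of all genes by -0.18 after hardening, -0.11 at 15 min and -0.15 at 1 h in D. montana and by -0.25 in the difference in hardening. In hardened D. montana it turned shi (-0.13), Csp (-0.085), Caki (-0.12), homer (-0.076) and hiw (-0.052), in hardened D. virilis shi (0.026), and in the difference in hardening shi (-0.15), Csp (-0.015) and Caki (-0.015). Normexp gave 9 genes at 15 min and 7 between the recovery times, and turned hiw at 15 min (0.26) and 1 h (0.34) and spin in the difference in hardening (0.0033). Quantile normalization and the authors' table each gave 2 genes in hardened D. virilis and 2 in the difference in hardening, 16.7% higher at 15 min (against 35.7%) and 83.3% between the recovery times (against 100%), and turned homer in the difference in acclimation (-0.046 and -0.042). With both orientations averaged, 17 genes and 0 of the 7 differed in acclimation, 0 genes changed in hardened D. virilis and 0 differed in hardening. That setting turned Csp in acclimated D. montana (-0.10), Amph at 15 min (0.081), shi, Amph and hiw at 1 h (0.015, 0.062 and 0.045) and spin in the difference in acclimation (-0.050). With the median over probes, 2 of the 7 passed in acclimated D. montana.

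The replicate block gave 27 genes at 15 min, 14 at 1 h and 4 in hardened D. virilis, and changed no call among the 7. Slide as a block, an alternative chosen after seeing the data, gave 30, 14 and 4, with 2 of the 7 at 15 min. With 1 array left out at a time, genes called were 34 to 45 in acclimated D. montana, 1 to 30 at 15 min, 15 to 29 for the difference in acclimation, 0 to 2 in hardened D. montana, 0 to 7 in hardened D. virilis and 0 to 3 for the difference in hardening. Of the 7, 1 to 3 passed in acclimated D. montana (1 without control replicate 3), 0 to 2 at 15 min, 3 to 5 in acclimated D. virilis and 0 to 1 in hardened D. virilis. The 15-min count was 30 without recovery replicate 1, 1 without replicate 2 and 2 without control replicate 1. Signs of uncalled changes turned for spin in acclimated D. montana (-0.27 to 0.0051), for shi (-0.0065 to 0.14), Caki (-0.017 to 0.12) and Amph (-0.13 to 0.0095) in hardened D. montana and for Amph at 15 min (-0.36 to 0.026). Between the recovery times they turned for shi (-0.0041 to 0.26), Csp (-0.030 to 0.31), Amph (-0.30 to 0.11), Caki (-0.016 to 0.20) and homer (-0.058 to 0.15). They also did for Amph in acclimated D. virilis (-0.024 to 0.21), for shi (-0.12 to 0.025) and Amph (-0.019 to 0.073) in hardened D. virilis, for homer in the difference in acclimation (-0.082 to 0.13) and for spin in that in hardening (-0.15 to 0.061).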
